A study of Mus musculus with 18 samples.

Results

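The laminins, nidogens and perlecan were taken as 10 genes chosen by name: the laminin alpha chains Lama1, Lama2, Lama4 and Lama5, the beta chains Lamb1 and Lamb2, the gamma chain Lamc1, the nidogens Nid1 and Nid2, and Hspg2, the gene of perlecan. A probe could be matched to 9 of the 10 through its accession, and Lamc1 was not analysed here. All 9 passed the filter on dim probes, among 17925 genes in all, and they were read by 11 of 26511 probes, since Lama4 had 3 and each other gene had 1.

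Laminins are cross-shaped trimers of an alpha, a beta and a gamma chain that cells secrete and bind through integrins and dystroglycan, and their polymer is the first layer of a basement membrane. Nidogens bind the laminin gamma 1 chain and collagen IV and so link the laminin layer to the collagen layer, and perlecan, a large heparan sulfate proteoglycan, also binds both and holds growth factors. In the thyroid, every follicle of hormone-making epithelial cells rests on a basement membrane, and the dense capillary net around the follicles has its own, so a whole gland reads both together.

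Thyroid RNA was measured on single-colour Agilent mouse arrays in 4 groups of C57BL/6 mice aged 1 month. Wild-type (WT) and Glis3KO2 (KO2) mice, the latter carrying a targeted allele of the zinc finger transcription factor Glis3, were weaned at 3 weeks. On a normal diet (NIH31) there were 5 mice of each genotype, and after 6 days on a low-iodine diet, which in normal animals raises thyrotropin, there were 4 of each. The sex of the mice and the deleted stretch of Glis3 are not given in the sources used here.

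Levels are the log2 of an array's processed signal for a probe minus the log2 of that array's 75th percentile signal, so 0 marks the 75th percentile. A difference is KO2 minus WT on this log2 scale, with the standard error (SE) of a limma model over all 18 arrays, and it passed the threshold where the p-value adjusted over all 17925 genes was under 0.05. Levels of different probes are not comparable with each other. The share of spots well above background ran from 60.1% to 90.6% across arrays, no spot was saturated, and arrays of a group correlated at 0.944 to 0.988. The normal-diet and low-iodine arrays lay on different slides, read by different scanners (G2505C and G2600D), so the diets and the array sets cannot be told apart, while each of the 5 slides held both genotypes in equal numbers. The probe of Glis3 itself differed by 0.45 ± 0.42 (SE, adjusted p = 0.732) on the normal diet. On low iodine it differed by −1.36 ± 0.47 (SE), with an adjusted p of 0.0619 that became 0.0259 when slides entered the model (0.0211 to 0.201 over 21 alternatives). Without KO2 replicate 1 the second difference was −0.87. Where that probe lies relative to the targeted stretch is not known here, so its level does not check the labels.

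Promoter sequence could be read for 6 members (Lama2, Lama5, Lamb1, Lamb2, Nid1 and Hspg2) from RefSeq for GRCm38.p6, as the 250 bases before the annotated gene start. Both strands were searched for TGGGGGGT (the core of the binding site described for GLIS proteins), GGGCGG (GC box), CCAAT and TATAAA. The GLIS-type core was found in 1 of the 6 windows, that of Hspg2, and in 1.36% of the 32851 windows of the table. GC boxes were in 4 of the 6 (32.7% of all windows), CCAAT in 2 (33.8%) and TATAAA in 0 (12.4%). The Nid1 window, chr13:13437352-13437601 on the plus strand, is printed because Nid1 is the member with both a window and a lower level in KO2 thyroids. Its capitals mark a CCAAT box on the opposite strand, 91 to 87 bases before the start, and a GC box 67 to 62 bases before it. Of Hspg2, 30 bases on the plus strand, chr4:137468752-137468781, are printed for the GLIS-type core in capitals, 40 to 33 bases before the start. A match is a description of letters and not a site.
Nid1: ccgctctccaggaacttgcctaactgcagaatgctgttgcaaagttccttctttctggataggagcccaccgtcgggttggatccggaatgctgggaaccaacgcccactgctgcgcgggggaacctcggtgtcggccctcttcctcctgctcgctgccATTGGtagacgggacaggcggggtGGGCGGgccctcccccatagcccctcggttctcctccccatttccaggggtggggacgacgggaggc
Hspg2: ggttgggggggTGGGGGGTgggaaagaggc

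On the low-iodine diet, 3 of the 9 measured genes were lower in KO2 thyroids and 0 were higher. They were the linkers Nid2 and Nid1, and Lama4, an alpha chain typical of blood vessels. Of all genes tested, 15.0% passed in this comparison, 7.18% as lower. The median difference of the 9 was −0.41, against −0.02 over all genes. The same 3 were the members whose WT and KO2 arrays did not overlap, a condition that 19.7% of all genes met. The other 6, Lama1, Lama2, Lama5, Lamb1, Lamb2 and Hspg2, did not pass. On the normal diet 0 of the 9 passed (0 also at an unadjusted p under 0.05), with a median of −0.17 and a range of −0.77 to 0.42. There, 1.39% of all genes passed, the median over all genes was 0.05, and no member had separate groups, against 3.52% of all genes.

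**Figure D1:**
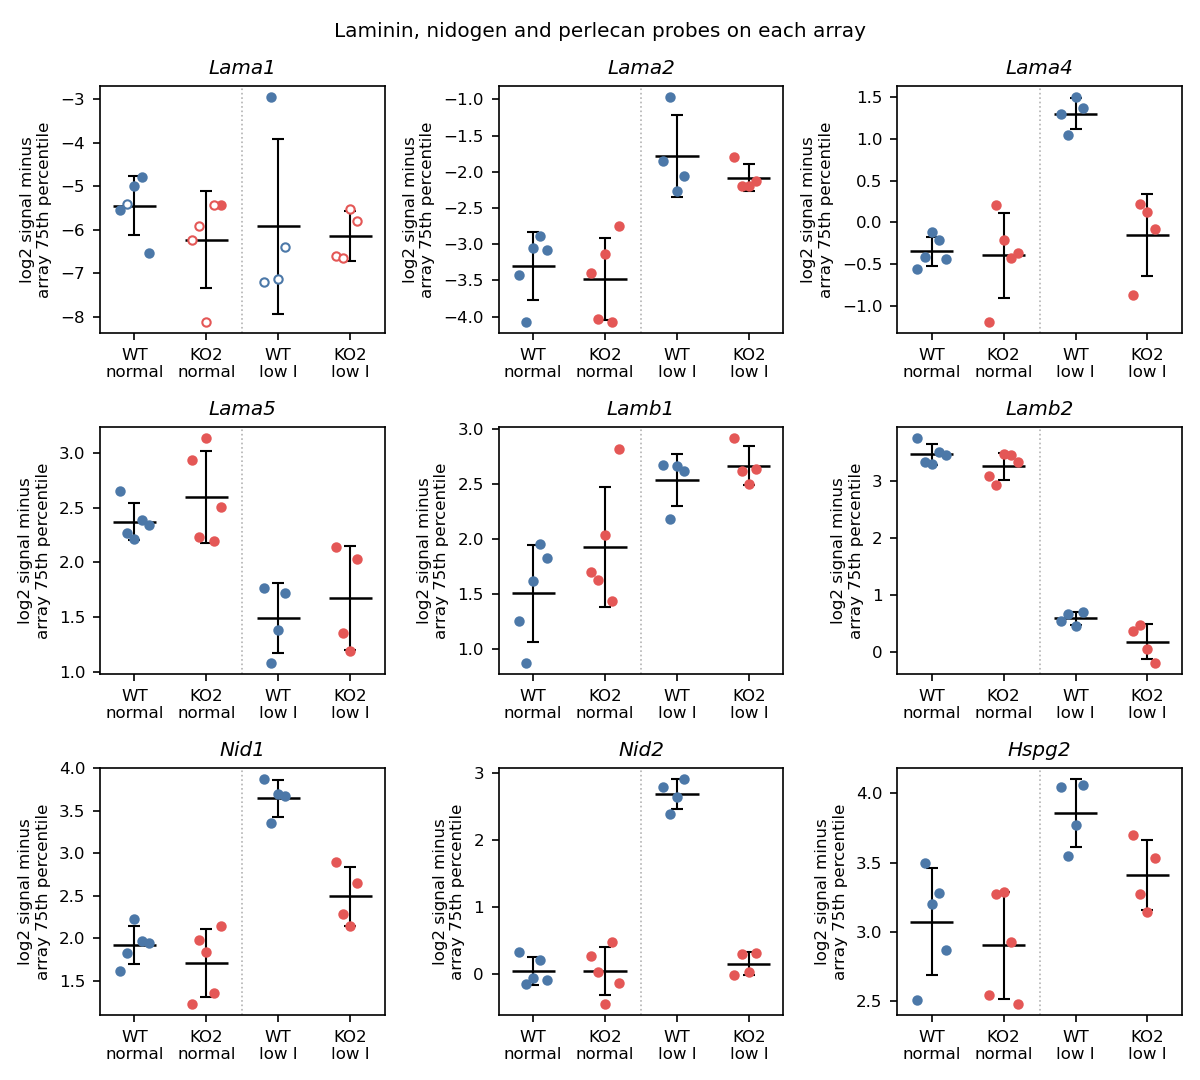
Log2 level relative to each array's 75th percentile (vertical axis) of the 9 measured genes in WT and KO2 thyroids on the normal diet (5 arrays each) and the low-iodine diet (4 each). Each point is an array, open where the probe was not well above background, and bars are the mean ± SD. In the Nid2 panel the 4 WT low-iodine arrays sit at 2.39 to 2.91 and all others between −0.45 and 0.48.

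Nid2, the second nidogen, gave the largest difference of the members. On the low-iodine diet its levels were 2.79, 2.39, 2.64 and 2.91 in WT (replicates 1 to 4, in this order throughout) against −0.02, 0.29, 0.02 and 0.31 in KO2. Their normal-diet counterparts were 0.32, −0.16, −0.06, 0.21 and −0.10 in WT and 0.27, 0.03, −0.45, 0.48 and −0.14 in KO2 replicates 1 to 5. The WT low-iodine arrays stood above every other array, and the other 3 groups overlapped, with normal-diet means of 0.04 ± 0.21 (SD) for the 5 WT arrays and 0.04 ± 0.36 (SD) for the 5 KO2 arrays, and 0.15 ± 0.17 (SD) for the 4 low-iodine KO2 arrays. Against the WT low-iodine mean of 2.68 ± 0.23 (SD, n = 4), the KO2 level was 5.77-fold lower (−2.53 ± 0.19 SE, 95% confidence interval −2.94 to −2.12, adjusted p = 1.55e-06). It was −2.44 and −2.62 within slides 4 and 5. Of the 17925 genes, 170 (0.948%) had a difference at or below this one. The normal-diet difference was 0.00 ± 0.17 (SE, interval −0.37 to 0.36, adjusted p = 0.997).

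Nid1, the better known nidogen, was lower in KO2 as well. Its low-iodine levels were 3.87, 3.35, 3.70 and 3.67 in WT and 2.90, 2.28, 2.14 and 2.65 in KO2 replicates 1 to 4. Its normal-diet levels were 1.62, 1.83, 2.23, 1.97 and 1.95 in WT and 1.23, 1.98, 1.84, 1.36 and 2.14 in KO2 replicates 1 to 5. All WT low-iodine arrays lay above all KO2 low-iodine arrays, whereas on the normal diet the genotypes overlapped. KO2 was 2.23-fold lower on the low-iodine diet (−1.16 ± 0.22 SE, interval −1.62 to −0.69, adjusted p = 0.00220), with −0.83 within slide 4 and −1.48 within slide 5. With arrays scaled to their median in place of the 75th percentile, the difference was −1.01 and its adjusted p was 0.0555 (1.33e-04 to 0.0555 over 21 alternatives). The normal-diet value was −0.21 ± 0.20 (SE, interval −0.63 to 0.21, adjusted p = 0.734). In order of group mean, Nid1 stood at 3.65 ± 0.22 (SD) in WT on low iodine, 2.49 ± 0.35 (SD) in KO2 on low iodine, 1.92 ± 0.22 (SD) in WT and 1.71 ± 0.39 (SD) in KO2 on the normal diet, and the WT low-iodine arrays stood clear of the rest while each of the other neighbours overlapped.

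The gap between the nidogens was compared within arrays. The level of Nid2 minus that of Nid1 averaged −0.97 ± 0.14 (SD) over the 4 WT arrays and −2.34 ± 0.41 (SD) over the 4 KO2 arrays of the low-iodine diet, a difference of −1.37. In these arrays the probe of Nid2 was thus further below its WT level in KO2 than that of Nid1. An exact two-sided permutation test gave p = 0.0286, the smallest that 4 against 4 arrays allow, and 0.114 after adjustment over 8 such tests. On the normal diet the difference was 0.21 (exact p = 0.563). These pairs of genes were chosen after the values were seen, a choice that the adjustment does not cover.

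Among the alpha chains, which carry the receptor-binding globes of a laminin, Lama4 was the member called lower in KO2 on low iodine. Read by its brightest probe, A_51_P212420, its low-iodine levels were 1.30, 1.05, 1.50 and 1.37 in WT and −0.87, 0.22, 0.13 and −0.08 in KO2 replicates 1 to 4. Normal-diet levels were −0.56, −0.41, −0.12, −0.21 and −0.44 in WT and −1.19, 0.21, −0.21, −0.42 and −0.36 in KO2 replicates 1 to 5. As with Nid2, the 4 WT low-iodine arrays stood above all 14 others, and the other groups overlapped; KO2 replicate 1 was the lowest array on each diet. The low-iodine level was 2.74-fold lower in KO2 (−1.46 ± 0.26 SE, interval −2.01 to −0.90, adjusted p = 0.00149), with −1.65 and −1.26 within slides 4 and 5. The difference among normal-diet arrays was −0.05 ± 0.24 (SE, interval −0.55 to 0.45, adjusted p = 0.963).

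All 3 Lama4 probes were lower in KO2 on the low-iodine diet, by −1.46 ± 0.27 for A_51_P212420, −1.51 ± 0.25 for A_52_P7554 and −1.79 ± 0.36 for A_51_P212427 (SE, adjusted p over all probes 0.00167, 7.60e-04 and 0.00320). With every probe counted, 5 of the 11 were lower there, against 7.11% of all probes lower and 13.4% past the threshold in either direction. The 3 Lama4 probes are among these 5 and are not independent of each other. The probes disagreed on the diet groups in WT. A_51_P212420 and A_52_P7554 were higher on low iodine by 1.65 ± 0.25 and 1.52 ± 0.24 (SE), and A_51_P212427 differed by −0.14 ± 0.34 (SE, adjusted p = 0.708). In KO2 the first pair differed by 0.25 ± 0.25 (adjusted p = 0.386) and 0.06 ± 0.24 (adjusted p = 0.823), and A_51_P212427 was lower by −1.90 ± 0.34 (SE, adjusted p = 7.13e-05). This dimmer probe was not well above background on 1 of the 4 KO2 low-iodine arrays, replicate 1, at −5.39.

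**Figure D2:**
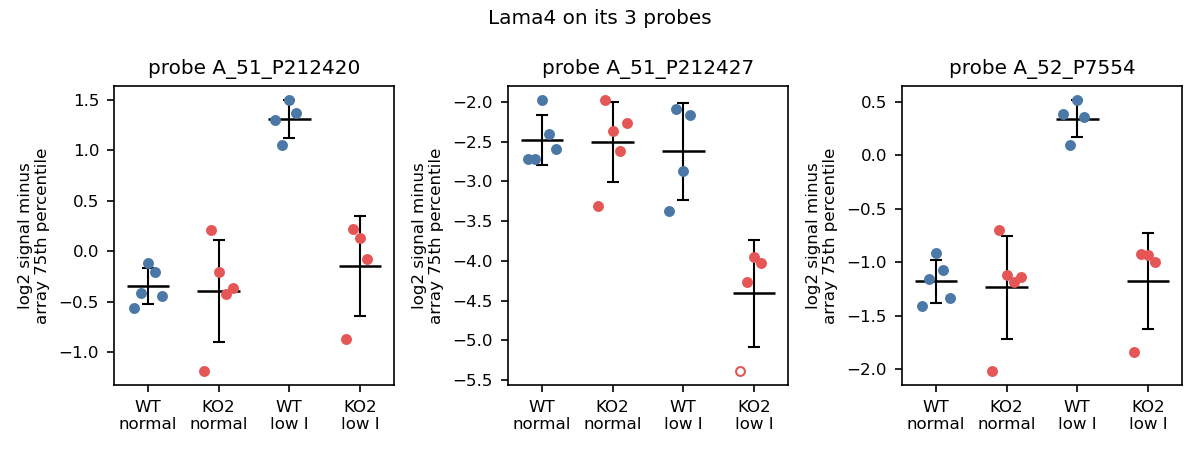
Log2 level relative to each array's 75th percentile for the 3 probes of Lama4, 1 panel a probe, in the 4 groups; points are arrays, open where not well above background, and bars are the mean ± SD. In each panel the KO2 low-iodine arrays lie below the WT low-iodine arrays, and in the panel of A_51_P212427 the WT low-iodine arrays (−3.37 to −2.09) overlap the normal-diet arrays.

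Lama5, the alpha chain of most epithelial basement membranes, ran from 1.08 to 1.77 in WT and from 1.19 to 2.14 in KO2 on the low-iodine diet, and from 2.22 to 2.66 in WT and 2.20 to 3.14 in KO2 on the normal diet. The genotypes overlapped on both diets. Its difference was 0.19 ± 0.25 (SE, interval −0.35 to 0.72, adjusted p = 0.704) on low iodine and 0.23 ± 0.23 (SE, interval −0.25 to 0.70, adjusted p = 0.751) on the normal diet. The low-iodine sign turned without scaling between arrays, where it was −0.07. Within arrays, the level of Lama4 minus that of Lama5 averaged −0.18 ± 0.27 (SD) over the 4 WT arrays and −1.83 ± 0.92 (SD) over the 4 KO2 arrays of the low-iodine diet, and these groups did not overlap (exact permutation p = 0.0286, the smallest possible, adjusted p = 0.114). The same gap differed by −0.28 (exact p = 0.516) on the normal diet. This pair too was chosen after its values were seen, which the adjustment does not cover. Against Lama2, the low-iodine gap of Lama4 ran from 2.02 to 3.76 in WT and from 0.93 to 2.41 in KO2, which overlapped (difference −1.16, exact permutation p = 0.114, adjusted p = 0.183), and the normal-diet difference was 0.13 (exact p = 0.770).

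Lama2, the alpha chain of muscle and peripheral nerve, had low-iodine levels of −1.85, −0.97, −2.26 and −2.06 in WT and −1.80, −2.20, −2.19 and −2.13 in KO2 replicates 1 to 4. WT replicate 2 was the highest and the other arrays of both genotypes lay close together and overlapped. The difference was −0.30 ± 0.33 (SE, interval −0.99 to 0.40, adjusted p = 0.636), and on the normal diet, where levels ran from −4.07 to −2.75, it was −0.18 ± 0.29 (SE, interval −0.80 to 0.44, adjusted p = 0.871). Skeletal muscle markers varied widely between arrays in every group: the log2 of their summed level over 7 genes ran from 1.18 to 6.65 in WT and 0.21 to 5.76 in KO2 on low iodine, and from 0.60 to 7.45 and −0.86 to 8.89 on the normal diet. No marker of the 7 differed between genotypes past the threshold (0 also at an unadjusted p under 0.05), and their part in the levels of Lama2 was not tested.

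Lama1, the alpha chain of embryonic laminin, was near the limit of these arrays. Its probe was well above background on 4 of 5 WT and 1 of 5 KO2 arrays on the normal diet, and on 1 of 4 WT and 0 of 4 KO2 arrays on low iodine. That 1 array, WT replicate 2, read −2.95 against −7.20 to −6.40 on the other WT arrays, and it also had the highest median signal of the series, 191.5, whose part in it was not tested. The spread of Lama1 within groups was 1.23 (SD), larger than that of 98.0% of genes, against 0.22 to 0.48 for the other members and a median of 0.39 over all genes. The fitted differences were −0.77 ± 0.70 (SE, adjusted p = 0.720) on the normal diet and −0.22 ± 0.78 (SE, adjusted p = 0.891) on low iodine, and no fold is given for the second because the bound was under 1.

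The beta chains pair with an alpha and a gamma chain, Lamb1 widely and Lamb2 in vessel, kidney and synapse basement membranes. Lamb1 levels on low iodine were 2.68, 2.18, 2.67 and 2.62 in WT and 2.92, 2.62, 2.50 and 2.64 in KO2. Apart from the lower WT replicate 2, the arrays of both genotypes lay within the same narrow band. The difference was 0.13 ± 0.28 (SE, interval −0.46 to 0.71, adjusted p = 0.818), which turned to −0.13 without scaling between arrays, and on the normal diet it was 0.42 ± 0.25 (SE, interval −0.11 to 0.94, adjusted p = 0.510).

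Lamb2 levels on low iodine were 0.54, 0.67, 0.45 and 0.70 in WT and 0.37, 0.48, 0.06 and −0.19 in KO2. KO2 arrays were mostly the lower ones, but KO2 replicate 2 lay above WT replicate 3, so the groups overlapped. Its difference of −0.41 ± 0.17 (SE, interval −0.77 to −0.05) did not pass after adjustment (adjusted p = 0.121), and it was −0.52 and −0.31 within slides 4 and 5. Its normal-diet difference was −0.21 ± 0.15 (SE, interval −0.53 to 0.11, adjusted p = 0.625). With quantile normalization the low-iodine difference was −0.52 with an adjusted p of 0.0467, and perlecan passed as well, so that 5 members were lower. Under that normalization 21.4% of all genes passed on low iodine, against 15.0% in the main fit. The within-array level of Lamb1 minus that of Lamb2 differed between genotypes by 0.54 on low iodine (exact permutation p = 0.0857, adjusted p = 0.183) and 0.63 on the normal diet (exact p = 0.111, adjusted p = 0.183).

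Hspg2, the gene of perlecan, had low-iodine levels of 4.05, 3.55, 3.77 and 4.06 in WT and 3.70, 3.27, 3.14 and 3.53 in KO2. WT arrays were the higher on average, with 1 KO2 array, replicate 1, above the lowest WT array. The difference of −0.45 ± 0.24 (SE, interval −0.95 to 0.05, adjusted p = 0.238) did not pass, with −0.18 within slide 4 and −0.71 within slide 5, and under quantile normalization it was −0.65 with an adjusted p of 0.0383. For the normal-diet arrays it was −0.17 ± 0.21 (SE, interval −0.62 to 0.28, adjusted p = 0.818).

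**Figure D3:**
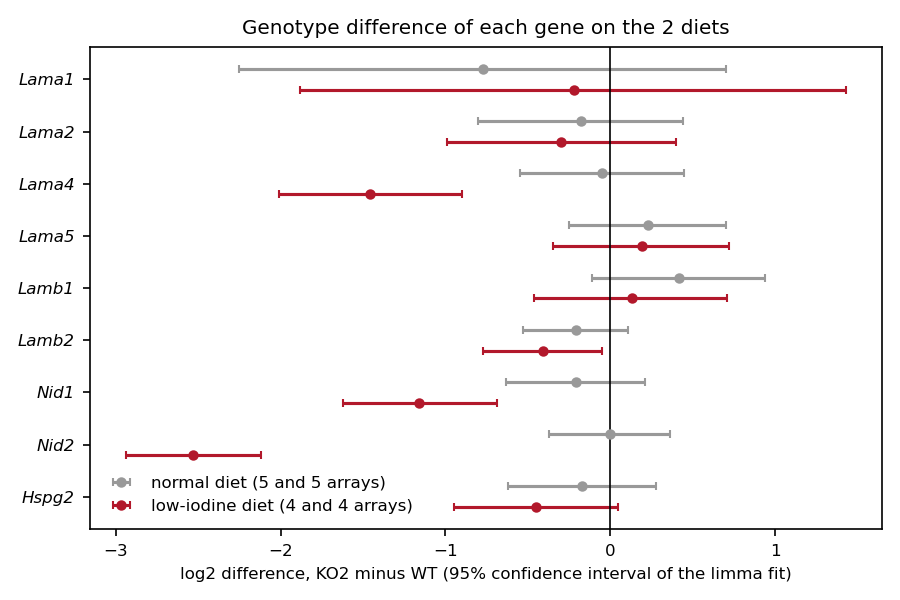
KO2 minus WT log2 difference of the 9 genes on each diet (horizontal axis), with whiskers for the 95% confidence interval of the limma fit. On the low-iodine diet the intervals of Nid2 (−2.94 to −2.12), Lama4 (−2.01 to −0.90) and Nid1 (−1.62 to −0.69) lie farthest below 0, and on the normal diet every interval includes 0.

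The genotype by diet interaction asks whether the KO2 difference itself differed between the 2 array sets. Nid2 was the 1 member of 9 that passed, at −2.53 ± 0.26 (SE, interval −3.07 to −1.98, adjusted p = 1.24e-04; 9.18e-04 when slides entered the model), in a comparison where 1.22% of all genes passed. With slide as a random block 2 members passed, and the share of all genes passing in that fit is not given here. Lama4 gave −1.41 ± 0.35 (SE, adjusted p = 0.0630), and without KO2 normal-diet replicate 1, its lowest array there, −1.61 with an adjusted p of 0.0166. Over single probes 2 of 11 passed against 1.29% of all probes, Nid2 and Lama4 probe A_52_P7554 (−1.46 ± 0.34 SE, adjusted p = 0.0422), while A_51_P212427 gave −1.76 ± 0.48 (SE, adjusted p = 0.0884). Nid1 did not pass (−0.95 ± 0.30 SE, adjusted p = 0.137), so its low-iodine difference was not shown to differ from that on the normal diet. The other 6 ranged from −0.29 to 0.55.

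Between diets, 8 of the 9 members differed in WT, 6 higher and 2 lower on low iodine, where 75.9% of all genes passed, and 5 differed in KO2, 3 higher and 2 lower, where 74.4% passed. In WT, Nid2 was higher by 2.64, Nid1 by 1.73, Lama4 by 1.65, Lama2 by 1.51, Lamb1 by 1.03 and Hspg2 by 0.78, and Lamb2 and Lama5 differed by −2.88 and −0.89. In KO2, Lama2 (1.40), Lamb1 (0.75) and Nid1 (0.78) were higher and Lamb2 (−3.08) and Lama5 (−0.93) lower, while Nid2 (0.11, adjusted p = 0.589), Lama4 (0.25, adjusted p = 0.384) and Hspg2 (0.51, adjusted p = 0.0512) did not pass. Scaled to the array median, the median of all genes fell by 0.91 in WT and by 0.80 in KO2, and these values moved with it. In WT, Lama2 (0.53), Lama4 (0.67) and Lamb1 (0.05) no longer passed and Hspg2 turned to −0.20, while Lama1 passed as lower (−1.46). In KO2, Nid2 turned to −0.70 and passed as lower (adjusted p = 0.0239), Lama2 (0.59) no longer passed, and Lama4 (−0.57), Hspg2 (−0.30), Lamb1 (−0.06) and Nid1 (−0.03) turned without passing. The diet and the array set cannot be told apart in any of these values.

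Partners of the laminins in the basement membrane also differed between genotypes. Over all genes, 15.0% passed on low iodine, 7.18% as lower, and 1.39% passed on the normal diet. Of 9 basement membrane collagen genes, 4 were lower and 1 higher in KO2 on low iodine, with a median of −0.61. Col4a1 and Col4a2, the chains of the ubiquitous collagen IV network that nidogens bind, were lower in KO2 by 2.07 ± 0.23 and 1.75 ± 0.21 (SE, adjusted p = 3.01e-05 and 5.06e-05). Col18a1 and Col15a1, collagens that carry glycosaminoglycan chains and lie at the outer face of basement membranes, were lower in KO2 by 1.94 ± 0.29 (SE, adjusted p = 3.40e-04) and 1.74 ± 0.29 (SE, adjusted p = 8.71e-04). Low-iodine Col4a1 levels averaged 4.20 ± 0.28 (SD) over the WT and 2.13 ± 0.10 (SD) over the KO2 arrays, with no overlap, and the normal-diet means were 2.26 ± 0.26 and 1.94 ± 0.49 (SD). The 1 that was higher, Col4a4, a chain of the kidney-type network, differed by 0.85 ± 0.27 (SE, adjusted p = 0.0442) and passed in 9 of 21 alternatives (adjusted p 0.0181 to 0.294); without KO2 replicate 1 it was 0.51, and leaving out any of WT replicates 1, 2, 3 and 4 or KO2 replicate 4 also ended the call.

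On the normal diet 2 of these 9 collagens were lower and 0 higher (4 at an unadjusted p under 0.05), Col15a1 by −1.41 ± 0.26 and Col18a1 by −1.42 ± 0.26 (SE, adjusted p = 0.0113 for each), both of which were also lower on low iodine. Fitted on the normal-diet arrays alone, neither passed (adjusted p = 0.0876 and 0.0946), and with the replicate block Col18a1 did not (adjusted p = 0.0555).

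Among 15 measured other basement membrane proteins, 3 were lower and 0 higher in KO2 on low iodine. Their median was −0.66, and 7.18% of all genes were lower there. Fbln2, a fibulin that binds nidogen and laminin, was lower in KO2 by 2.10 ± 0.20 (SE, adjusted p = 8.80e-06), at −0.59 ± 0.56 against 1.52 ± 0.05 in WT (SD, n = 4 each). Sparc, a collagen IV-binding matricellular protein, was lower in KO2 by 1.96 ± 0.20 (SE, adjusted p = 1.21e-05), or by 1.22 as the mean of its probes. Smoc2, a relative of Sparc, was lower in KO2 by 1.51 ± 0.32 (SE, adjusted p = 0.00406). On the normal diet, where 5 of the 15 had an unadjusted p under 0.05, Smoc2 was the 1 member of its list called, at −1.28 ± 0.28 (SE, adjusted p = 0.0317). That normal-diet call was lost in 13 of 23 alternatives, slide as a block among them (adjusted p = 0.0640) and leaving out any array but WT and KO2 replicate 4 (adjusted p 0.0627 to 0.0970).

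Of the laminin chains Lama3, Lamb3 and Lamc3, 0 were lower on the normal diet (1 at an unadjusted p under 0.05). On low iodine 1 was lower, against 7.18% of all genes. Lamb3, the beta chain of the hemidesmosome laminin, differed by −0.79 ± 0.22 (SE, adjusted p = 0.0251), and the call was lost under 7 of 21 alternatives. Those were median scaling (−0.64, adjusted p = 0.249), normexp background correction (−0.65, adjusted p = 0.0565), and leaving out WT replicate 1, 3 or 4 or KO2 replicate 1 or 3 (adjusted p 0.0538 to 0.0702).

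Genes that process or crosslink collagen and other matrix were lower too on low iodine, where 7.18% of all genes were lower. Of 12, 6 were lower and 0 higher on low iodine, with a median of −0.83, and 0 passed on the normal diet (4 at an unadjusted p under 0.05). They included the crosslinking oxidases Lox (−2.36 ± 0.42 SE, adjusted p = 0.00138) and Loxl4 (−1.48 ± 0.25 SE, adjusted p = 8.80e-04), the lysyl hydroxylase Plod1 (−1.14 ± 0.22 SE, adjusted p = 0.00234) and the collagen chaperone Serpinh1 (−1.40 ± 0.29 SE, adjusted p = 0.00376).

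Receptors of laminin moved on the same diet, where 7.18% of all genes were lower. Of 11 measured, 6 were lower and 0 higher in KO2 on low iodine (median −0.82), or 3 with median scaling, and 0 passed on the normal diet (2 at an unadjusted p under 0.05, median −0.07). The integrin chains Itga6 and Itgb1, which together bind laminins, differed by −0.88 ± 0.13 (SE, adjusted p = 2.86e-04) and −0.98 ± 0.19 (SE, adjusted p = 0.00224), and with median scaling neither passed (adjusted p = 0.0786 and 0.0795). Sdc1, a heparan sulfate proteoglycan of the cell surface, was lower in KO2 by 1.65 ± 0.24 (SE, adjusted p = 2.66e-04). Itga2, a collagen and laminin receptor chain, was lower in KO2 by 2.20 ± 0.39 (SE, adjusted p = 0.00128), or by 0.83 with normexp background correction. Its dim probe was well above background on 4 of 4 WT and 2 of 4 KO2 low-iodine arrays. On the normal diet it was so on 1 of 5 WT and 0 of 5 KO2 arrays. The 7 measured glycosyltransferases that build the laminin-binding sugar of dystroglycan had 0 calls on either diet (1 on each at an unadjusted p under 0.05), with medians of −0.10 on low iodine and −0.06 on the normal diet. The low-iodine count was 1 with slide as a block, where Pomgnt1 (−0.72, adjusted p = 0.0593) had an adjusted p of 0.0281. It was also 1 with quantile normalization and without KO2 replicate 2, and 2 without KO2 replicate 3.

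**Figure D4:**
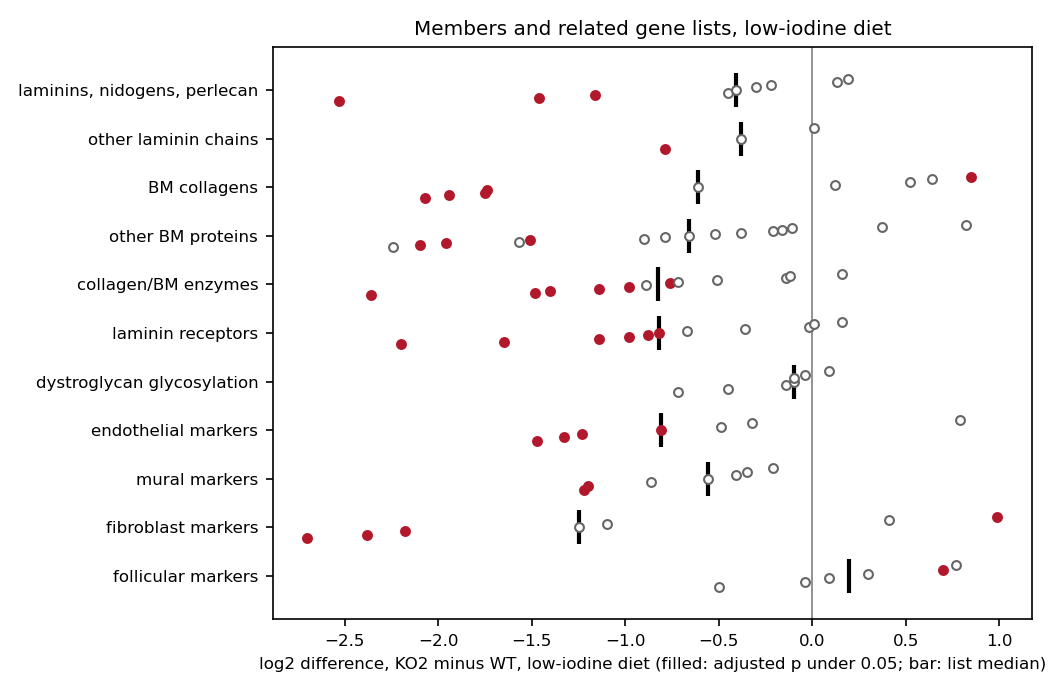
KO2 minus WT log2 difference on the low-iodine diet (horizontal axis) of each measured member, of each gene of the related basement membrane (BM) lists and of 4 cell marker lists (mural: pericyte and smooth muscle). Filled points passed an adjusted p of 0.05 and the bar is the list's median, which runs from −0.10 (dystroglycan glycosyltransferases) to −0.83 (collagen and matrix enzymes) among the related lists.

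Markers of the cells that can make these proteins also moved with the genotype. In a bulk gland, fewer cells of a type and less RNA per cell cannot be told apart. Over all genes, 7.18% were lower on low iodine, and 1.39% passed on the normal diet. Of 7 measured endothelial markers, 4 were lower and 0 higher in KO2 on low iodine, Cdh5 (−1.47), Tek (−1.33), Pecam1 (−1.23) and Esam (−0.81), with a list median of −0.81, and 2 were lower with median scaling. Cldn5, a tight junction gene of the same list, stood the other way at 0.79 ± 0.27 (SE, adjusted p = 0.0550). The log2 of the list's summed level was 5.09 to 5.29 in WT and 4.22 to 4.46 in KO2 on low iodine, without overlap, and 4.41 to 5.49 and 4.39 to 5.47 on the normal diet, where 0 of 7 passed (0 also unadjusted, median 0.04). Of 7 pericyte and smooth muscle markers, 2 were lower and 0 higher on low iodine (median −0.56, summed level 5.73 to 6.09 in WT and 5.27 to 5.49 in KO2), and the count ran from 1 to 4 over 21 alternatives. It was 1 without WT replicate 1, 3 or 4, and 4 with array weights. Of 7 fibroblast markers, 3 were lower, Col14a1 (−2.70), Pi16 (−2.38) and Mfap5 (−2.18), and 1 higher, Dcn (0.99), with a median of −1.25. Their summed levels, 3.24 to 3.92 in WT and 2.79 to 3.64 in KO2, overlapped. The mean of their log2 levels, 0.00 to 0.69 in WT and −1.22 to −0.57 in KO2, did not. With quantile normalization 5 were lower, where 21.4% of all genes passed in either direction. On the normal diet 1 fibroblast marker was lower and 0 higher (5 of 7 at an unadjusted p under 0.05, median −0.91), Col14a1 at −1.75 ± 0.37 (SE, adjusted p = 0.0240), and Lum (−1.43), Pi16 (−1.56) and Dpt (−0.91) did not pass. That count was 0 to 3 over 23 alternatives, 0 without WT replicate 2, 3 or 5 or KO2 replicate 1 or 3, and 3 without KO2 replicate 4. The summed fibroblast level overlapped on the normal diet, at 6.21 to 6.85 in WT and 6.30 to 6.73 in KO2. The mean log2 level overlapped there too, at 1.60 to 2.17 in WT and 0.36 to 1.70 in KO2. Each of these markers was well above background on at least 1 array of every group. The part of these cell types in the lower Nid2, Lama4, Nid1, collagen and receptor levels on low iodine, or in the lower Col15a1, Col18a1 and Smoc2 levels on the normal diet, was not tested.

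Of the 6 follicular cell markers, 0 were lower and 1 higher in KO2 on low iodine (median 0.20). Their summed level there was 7.27 to 7.77 in WT and 7.62 to 8.05 in KO2. On the normal diet 2 were higher (4 at an unadjusted p under 0.05, median 0.68). Over all genes, 7.81% were higher on low iodine, and 0.513% were higher and 0.876% lower on the normal diet. Macrophage markers had 0 calls of 6 on low iodine (2 at an unadjusted p under 0.05) with a median of −0.72, and fat markers 0 of 5 (2 unadjusted, median 0.58). Schwann cell (median −0.01), thymic epithelial (0.02) and parathyroid markers (−0.32) had 0 calls there, also unadjusted. Of 4 C cell markers, 2 were higher there (median 1.18). Parathyroid markers varied widely between KO2 arrays. Their summed low-iodine level ran from 3.14 to 7.46 in KO2 and from 6.61 to 7.07 in WT. Pth ran from 0.08 to 6.54 in KO2 and from 5.61 to 6.06 in WT. The part of this spread in other levels was not tested. On the normal diet, 3 of the 5 thymic epithelial markers were lower in KO2 (median −3.46), of which Prss16 alone passed with the slides in the model (adjusted p = 0.0248, against 0.0761 for Psmb11 and 0.0612 for Ccl25), beside 0 of the 9 laminin, nidogen and perlecan genes.

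The 3 genes with the most similar profile over the 18 arrays were found for each member lower in KO2 on low iodine. Similarity was read as the root mean square (RMS) difference of centred log2 levels, among 13114 genes well above background on every array. For Nid2 they were Tnfaip8 (0.42), Entpd1 (0.44) and Dcdc2a (0.48), against a median RMS difference of 1.35 over all candidates. For Lama4 they were Ctif (0.30), Cdh13 (0.31) and Ecscr (0.31), against a median of 1.08. For Nid1 they were the intermediate filament gene Vim (0.26), the Notch target Hey1 (0.28) and the proteoglycan gene Sdc3 (0.28), against a median of 1.10. These profiles include the contrasts described, so the likeness is a description and has no test.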

How the data were processed

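Per the submitters' processing notes and the file headers, the authors read the scans with Agilent Feature Extraction version 12 (releases 12.0.0.7 and 12.0.3.1). The deposited processed signal is a linear intensity after background subtraction, and the deposited summary table held the same intensity. From it, log2 values minus the array's 75th percentile were computed without control spots and outlier-flagged spots, and spots of a probe were averaged.

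Of 41174 probes, 28215 (68.5%) matched 1 gene of the RefSeq GRCm38.p6 table by accession and 12959 matched none; 82 with every spot flagged on an array were left out. A probe was kept where at least 4 of 18 arrays had it well above background, and the brightest probe represents its gene. The limma 3.58.1 model (R 4.3.3) fitted 4 group means with Benjamini-Hochberg adjustment, and the code was tested on simulated data. Normexp used the median signal with an offset of 50, since the planned mean signal was not used here.

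The members and lists were chosen with earlier results of these data known. Named from each related list were up to 4 genes with the smallest p past the threshold on low iodine and up to 2 on the normal diet; Col4a4, Pomgnt1, the listed marker genes and the pairs of genes compared within arrays were named after their values were seen. Not every gene of the related lists is reported here. Slide numbers name slides only, and the number of arrays limits the precision.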

Additional observations from a re-analysis of the deposited data

Results flagged for a closer look

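In low-iodine KO2 thyroids, Lama2 stood at −1.80 in replicate 1, and the nearest other array was at −2.13, a gap of 0.84 of the group's range. In low-iodine WT thyroids, Lamb1 stood at 2.18 in replicate 2, the nearest other array at 2.62, a gap of 0.89 of the range. These were the arrays that stood apart among 36 groups of 4 or 5 arrays examined, and chance gives about 1 in 20 such groups. The groups share the same arrays and are not independent. Low-iodine WT replicate 2 had the highest median signal of the series, 191.5. It was also the lowest low-iodine WT array for Nid1, Nid2, Lama4, Lama5 and Hspg2, and the highest for Lama1 and Lama2. The part of its signal in these levels was not tested.

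The KO2 difference was not the same on the 2 diets for Nid2, by an interaction of −2.53 ± 0.26 (SE, limma adjusted p = 1.24e-04). For the Lama4 probe A_52_P7554 the interaction also passed, at −1.46 ± 0.34 (SE, limma adjusted p = 0.0422 over all probes). The other 2 Lama4 probes did not pass (limma adjusted p = 0.0652 and 0.0884), and neither did Lama4 in the gene fit (limma adjusted p = 0.0630). The diets lie on different array sets, which cannot be told apart from them.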

How the results depend on the processing

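The deposited table without scaling gave the same values as no scaling between arrays, so every tally of alternatives counts that setting more than once. The low-iodine differences kept their sign under all 21 alternatives, at −2.80 to −2.31 for Nid2, −1.72 to −1.21 for Lama4 and −1.42 to −1.01 for Nid1. All stayed past the threshold except Nid1 with median scaling (adjusted p = 0.0555). The Nid2 interaction ran from −2.79 to −2.29 over 30 alternatives (adjusted p 8.46e-06 to 0.00710), and that of Lama4 passed under 5 of 30 (adjusted p 0.0149 to 0.264). The count of members lower on low iodine, 3, was 5 with quantile normalization, where 21.4% of all genes passed against 15.0% in the main fit. The interaction count, 1, was 3 with quantile normalization, 2 with normexp correction, 2 with the mean over probes or a random slide block, 3 with array weights and 1 to 2 leaving out 1 array. Of all genes, 3.96% passed with quantile normalization, 1.80% with normexp correction, 1.33% with the mean over probes and 2.88% with array weights, against 1.22%. Over probes, 2 became 1 with median scaling, 4 with quantile normalization, 1 without scaling or in the deposited summary table, 1 with the replicate block, 4 with array weights and 1 to 4 leaving out 1 array. Diet counts became 5 in WT and 3 in KO2 with median scaling and 2 in KO2 without scaling or in the deposited table. The added alternatives (the related lists under every setting, a random slide block and the median signal in normexp) were chosen after seeing the data.

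Signs turned only in differences that were small or dim, or between diets. With median scaling, which moved the all-gene median to −0.91 in WT and −0.80 in KO2 between diets, the interaction was 0.06 for Lama2 and 0.14 for Lama5, the diet difference in WT was −0.20 for Hspg2, and in KO2 −0.73 (Lama1), −0.57 (Lama4), −0.06 (Lamb1), −0.03 (Nid1), −0.70 (Nid2) and −0.30 (Hspg2). Quantile normalization gave −1.64 for Lama1 between diets in KO2. Without scaling and in the deposited table, low-iodine values were −0.07 (Lama5) and −0.13 (Lamb1), and diet values in KO2 were −0.36 (Lama1), −0.20 (Lama4) and −0.33 (Nid2). Normexp gave Lama1 0.01 and Lama4 0.02 on the normal diet, and Lama1 −0.35 in the interaction and 0.75 between diets in WT. The mean over probes gave Lama4 −0.53 between diets in KO2. Array weights gave 0.62 (Lama1), −0.08 (Lama5) and −0.02 (Lamb1) on low iodine and 0.04 for Lama2 in the interaction. Leaving out 1 array gave −0.11 to 0.12 for Nid2 and −0.20 to 0.15 for Lama4 on the normal diet, −0.27 to 0.15 for Lama2 and −0.19 to 0.12 for Lama5 in the interaction, −0.65 to 0.77 for Lama1 on low iodine, and −0.39 to 0.28 for Lama1 and −0.01 to 0.22 for Nid2 between diets in KO2. The cause was not tested.

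Without scaling, 86.5% of low-iodine calls over all genes were lower, against 47.9%, and 90.6% on the normal diet, against 63.1%. Normal-diet calls were 249, but 3 on that diet's arrays alone, 992 with array weights, 160 with the replicate block, 675 without KO2 replicate 4, and 123 to 160 without WT replicate 2 or 5 or KO2 replicate 1, 3 or 5; low-iodine calls on their arrays alone were 1673, and 1642 with median scaling, against 2687. Interaction calls were 219, but 90 with median scaling, 709 with quantile normalization, 131 without scaling, 516 with array weights, and 131 to 141 without normal-diet WT replicate 3 or 4 or KO2 replicate 2, or low-iodine WT replicate 1, 3 or 4 or KO2 replicate 4. Replicate numbers carry no stated pairing: same-numbered arrays correlated at −0.04 to 0.32 on the normal diet and 0.03 to 0.13 on low iodine, with the own number best in 1 of 5 and 3 of 4. With the replicate block 3 members were lower on low iodine, 0 passed on the normal diet and 1 in the interaction. Lama1, dim in most groups, is limited by signal over background.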
